A study of Mus musculus with 13 samples.

Results

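The comparison described here set 5 arrays of Cl-BBQ-treated mice against 4 arrays of vehicle-treated mice, 9 of the 13 arrays of the series, chosen by the treatment named in the source label of each array. It covers 12710 genes that could be tested of 22180 genes with a probe set of a single gene symbol. Splenocytes of C57Bl/6 mice were transferred intravenously into B6D2F1 hosts, at a dose set by their T cell number, from mice of both strains bought at 10 to 12 weeks of age, to start graft-versus-host disease (GVHD), in which donor T cells attack host tissue. Hosts then received intraperitoneal Cl-BBQ at 10 mg/kg or vehicle, once a day from day 0 to day 2, and on day 3, at 72 h, CD4+ T cells were taken from spleen and lymph node with magnetic beads and sorted by flow cytometry. The sort kept cells whose CFSE, a dye diluted at each division, showed at least 2 divisions, so both groups hold only cells that had already divided in response to the host. In the remaining 4 arrays of the series, hosts received TCDD at 15 µg/kg on day 0. No allele or transgene is named in the labels of any group, the vehicle is not described further, and the labels name no marker that tells donor from host cells other than the dye. Each array is called a biological replicate, and 4 to 5 mice are given per treatment, but which mouse gave which array is not stated. The arrays were therefore taken as the replicates, and p-values rest on the spread between arrays within the groups, those of TCDD included.

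Cl-BBQ and TCDD (dioxin) are small molecules that bind the aryl hydrocarbon receptor (AhR), a transcription factor held in the cytoplasm by chaperones until a ligand binds. The bound receptor enters the nucleus, pairs with ARNT and binds DNA elements with the core GCGTG, which raises transcription of a battery of genes headed by the cytochrome P450 genes Cyp1a1 and Cyp1b1. Its repressor Ahrr and the ADP-ribosyltransferase gene Tiparp belong to the same battery and feed back on the receptor. In CD4+ T cells, which respond to antigen by dividing and by taking on helper, cytotoxic or regulatory programmes, AhR ligands are known to alter that choice.

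The 250 bases upstream of the start of the 5 battery genes that rose with Cl-BBQ are shown because this core is the element the receptor is known to bind. They come from RefSeq promoter windows of build GRCm38.p6, are written 5′ to 3′ on the strand of the gene with the start site directly after the last base, and carry the core (GCGTG, or CACGC where it lies on the opposite strand) in capitals.
Cyp1a1, chr9:57697363-57697612, plus strand: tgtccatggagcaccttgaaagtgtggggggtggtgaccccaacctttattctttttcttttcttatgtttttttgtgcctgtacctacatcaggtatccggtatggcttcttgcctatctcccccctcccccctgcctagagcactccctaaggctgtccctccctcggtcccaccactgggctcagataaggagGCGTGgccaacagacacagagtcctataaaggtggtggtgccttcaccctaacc
Cyp1b1, chr17:79715062-79715311, minus strand: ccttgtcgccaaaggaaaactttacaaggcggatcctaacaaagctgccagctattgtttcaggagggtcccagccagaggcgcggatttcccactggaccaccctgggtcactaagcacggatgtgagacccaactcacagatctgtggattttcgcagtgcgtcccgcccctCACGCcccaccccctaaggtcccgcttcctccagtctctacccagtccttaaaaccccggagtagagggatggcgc
Ahrr, chr13:74292332-74292581, minus strand: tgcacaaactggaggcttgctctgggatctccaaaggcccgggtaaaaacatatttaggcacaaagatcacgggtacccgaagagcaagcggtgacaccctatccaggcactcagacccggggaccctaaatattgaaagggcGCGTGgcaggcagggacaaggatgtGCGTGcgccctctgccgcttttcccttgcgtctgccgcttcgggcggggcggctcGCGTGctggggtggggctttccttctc
Tiparp, chr3:65528197-65528446, plus strand: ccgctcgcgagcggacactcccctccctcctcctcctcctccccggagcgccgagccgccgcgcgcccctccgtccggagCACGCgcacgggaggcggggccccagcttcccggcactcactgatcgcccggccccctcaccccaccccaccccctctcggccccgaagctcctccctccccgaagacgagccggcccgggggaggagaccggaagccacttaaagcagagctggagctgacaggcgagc
Nqo1, chr8:107403206-107403455, minus strand: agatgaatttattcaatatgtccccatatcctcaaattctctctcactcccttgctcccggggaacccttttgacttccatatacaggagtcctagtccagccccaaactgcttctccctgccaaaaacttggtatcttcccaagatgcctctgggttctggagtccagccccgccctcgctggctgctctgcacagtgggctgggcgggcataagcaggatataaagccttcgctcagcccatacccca
The Ahrr window held 3 copies of the core, those of Cyp1a1, Cyp1b1 and Tiparp held 1 each, and that of Nqo1, which encodes a quinone reductase, held 0. At least 1 window with the core was found for 48.8% of the 527 genes called higher that had a window, for 49.9% of 635 called lower and for 47.1% of 9993 tested genes. The shares in called genes were near that of all tested genes. Counted per single window, of tested genes or not, the share among all 32851 windows was 28.2%, a measure unlike the shares per gene. A match describes these letters only and is not a measured binding site.

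Expression values are on the log2 scale, as the authors made them with RMA, a method that corrects background, normalizes the arrays to each other and summarises the probes. Array medians lay between 4.27 and 4.33, and the correlation over all probe sets was 0.95 to 0.976 between Cl-BBQ arrays and 0.967 to 0.977 between vehicle arrays. The number of arrays limits the precision of each value. A gene was tested where at least 4 of the 13 arrays exceeded 4.31, the median of all values, and was called at an adjusted p under 0.05 in limma's moderated test. Against vehicle 1441 genes were called, 11.3% of those tested, 675 higher (5.31%) and 766 lower (6.03%). The median difference of all tested genes was -0.01 on the log2 scale and that of the called genes, regardless of sign, was 0.65. At least 2-fold differences were called for 160 genes higher and 203 lower, and at least 4-fold for 30 higher and 13 lower. In 1637 genes (12.9%) no Cl-BBQ array overlapped a vehicle array. When each of the 9 arrays was left out in turn, 970 of the 1441 calls held in every case. Below, differences are log2 Cl-BBQ minus vehicle ± SE from that fit, array values are listed in the order of their replicate numbers, and a list of genes is read against these shares, with no test of its own. The lists were chosen with earlier results of these data known, and some genes, Il10 among them, stand on several lists.

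**Figure D1:**
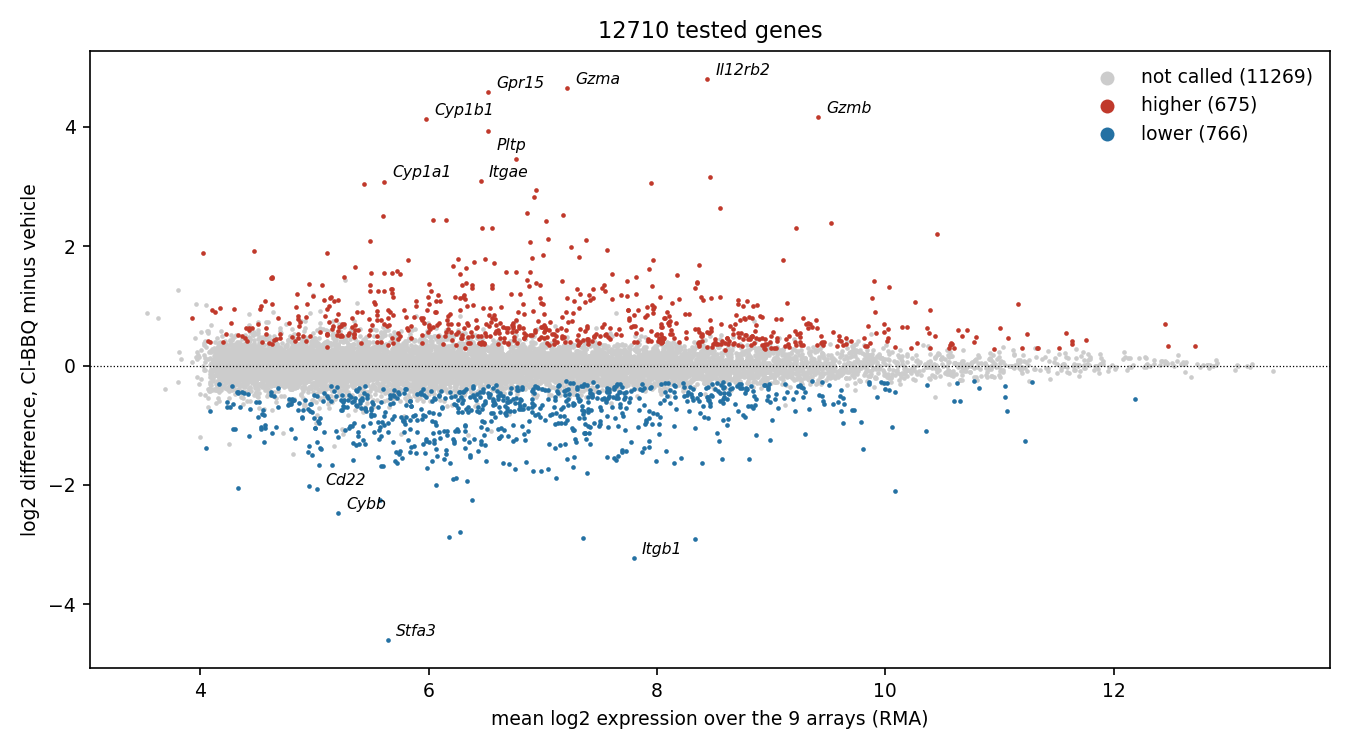
Log2 difference between Cl-BBQ and vehicle (vertical axis) against mean log2 expression over the 9 arrays (horizontal axis) for the 12710 tested genes, with 675 genes called higher in red, 766 called lower in blue and the rest in grey. Il12rb2 at 4.81 and Stfa3 at -4.60 mark the ends of the range, and called genes occur at low and high expression.

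T cell markers were high in both groups. Cd4 measured 10.52 ± 0.16 (SD, n = 4) with vehicle and 10.58 ± 0.07 (SD, n = 5) with Cl-BBQ, a difference of 0.06 ± 0.09. All 8 tested T cell markers had a positive difference and 1 was called, Thy1 at 0.36 ± 0.07. Their list averaged 10.98 to 11.24 with vehicle and 11.28 to 11.35 with Cl-BBQ, without overlap. Without Thy1 the ranges of 10.93 to 11.22 and 11.21 to 11.28 overlapped. Lists of markers of other cell types averaged at most 6.04 on any array, and part of their members lay below the floor. Of 12 B cell markers on the array 7, Ms4a1 and Ebf1 among them, were below the floor on all 9 arrays, and of 13 neutrophil markers 9, S100a8 and Ly6g among them. The plasma cell, CD8 T cell, gamma delta T cell and erythroid lists held no marker below the floor on all 9 arrays. The B cell list averaged 4.02 to 4.11 on the vehicle arrays and 3.79 to 3.97 on the Cl-BBQ arrays, which did not overlap, and without Cd22, its 1 called gene, 3.85 to 3.91 and 3.75 to 3.98, which did. In bulk RNA of sorted cells, fewer cells of a type and less RNA per cell cannot be told apart, here and in the results that follow. The monocyte and macrophage list, with 7 of 19 markers below the floor throughout, Lyz2 and Cd14 among them, averaged 4.70 to 4.83 with vehicle and 4.69 to 4.82 with Cl-BBQ. Of its 11 tested members 4 were called in opposite directions, Ccr2 higher by 1.78 ± 0.13, Cd68 by 0.64 ± 0.19 and Tyrobp by 0.49 ± 0.13, and Cybb lower by 2.48 ± 0.31; the calls of Cd68 and Tyrobp ended in 10 and 6 of 18 alternatives (limma, adjusted p up to 0.13 and 0.077), those of Ccr2 and Cybb in none. The dendritic cell, plasma cell, neutrophil, erythroid, platelet, gamma delta T cell, mast cell and stromal lists also overlapped between the groups. The gamma delta T cell overlap was narrow, at 4.25 to 4.53 with vehicle and 4.52 to 5.05 with Cl-BBQ. Without Cd163l1, its 1 called gene, the ranges were 4.33 to 4.68 and 4.42 to 4.79. The stromal list ran from 4.67 to 4.82 with vehicle and from 4.39 to 4.76 with Cl-BBQ. Of the members of these lists, Cd163l1, Itgb3 and Kit were higher and Igfbp7 was lower. Cd163l1 was below the floor on every vehicle array. The natural killer and CD8 T cell lists stood higher with Cl-BBQ, as given with the cytotoxic genes.

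Cl-BBQ raised the AhR battery. Of 13 targets on the array 5 rose, 1 fell and 2 were tested but not called, and the 5 rises held when any array was left out. The other 5, Cyp1a2, Aldh3a1, Serpinb2, Lpcat2 and Ido1, were too low in both groups to be tested, whereas Cyp1b1 and Ahrr passed the floor through ligand arrays alone. The median over the 8 tested was therefore high, at 1.71, and over all 13 it was 0.28. Cyp1b1, a cytochrome P450, measured 3.86, 3.78, 3.92 and 3.14 with vehicle and from 7.48 to 8.32 on the 5 Cl-BBQ arrays, with a median of 7.78. Cyp1a1, its relative and the classical marker of AhR activity, measured 3.23, 4.05, 4.35 and 3.96 with vehicle and 6.61, 7.09, 7.40, 6.96 and 6.86 with Cl-BBQ. All vehicle arrays of both genes lay near or below the floor and all Cl-BBQ arrays well above it, with differences of 4.14 ± 0.19 and 3.08 ± 0.26. With values below the floor set to it, Cyp1b1 was at least 11.4-fold higher (limma, adjusted p = 2.86e-09) and Cyp1a1, below the floor on 3 of 4 vehicle arrays, at least 6.34-fold higher (limma, adjusted p = 1.30e-06).

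The feedback genes of the battery rose as well. Tiparp, which modifies AhR with ADP-ribose, was already expressed without ligand and measured 6.55, 6.56, 6.63 and 6.19 with vehicle and 8.09, 8.48, 8.58, 8.56 and 8.41 with Cl-BBQ, a difference of 1.94 ± 0.13. Ahrr, which encodes the AhR repressor, measured 3.29, 4.06, 4.20 and 3.65 with vehicle and 4.89, 5.20, 5.63, 5.45 and 5.24 with Cl-BBQ, so that it passed the floor on every Cl-BBQ array and on none of the vehicle arrays. Nqo1 measured 4.58, 4.41, 4.20 and 4.10 with vehicle and 6.63, 6.30, 6.43, 6.06 and 6.64 with Cl-BBQ, a difference of 2.09 ± 0.16. Slc7a5, a transporter of large neutral amino acids that was placed on the target list, went the other way at -0.68 ± 0.17. Its groups overlapped, and the call ended without vehicle array 3 (limma, adjusted p = 0.063) and with the replicate number as a block (0.083).

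The receptor itself was not called. Ahr measured 6.10, 5.89, 6.26 and 5.64 with vehicle and 6.10, 6.60, 6.08, 6.12 and 6.37 with Cl-BBQ, and the groups overlapped (difference 0.28 ± 0.18, 95% interval from -0.12 to 0.68, limma, adjusted p = 0.41). Arnt, its nuclear partner, had a difference of 0.19 ± 0.11 with an interval from -0.03 to 0.42. Of 13 tested partners and coregulators 2 were called higher and 2 lower, and of these only Klf6, a zinc finger factor that can pair with AhR, at 0.65 ± 0.13, and Nrip1, a corepressor, at -0.46 ± 0.09, held when any array was left out.

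**Figure D2:**
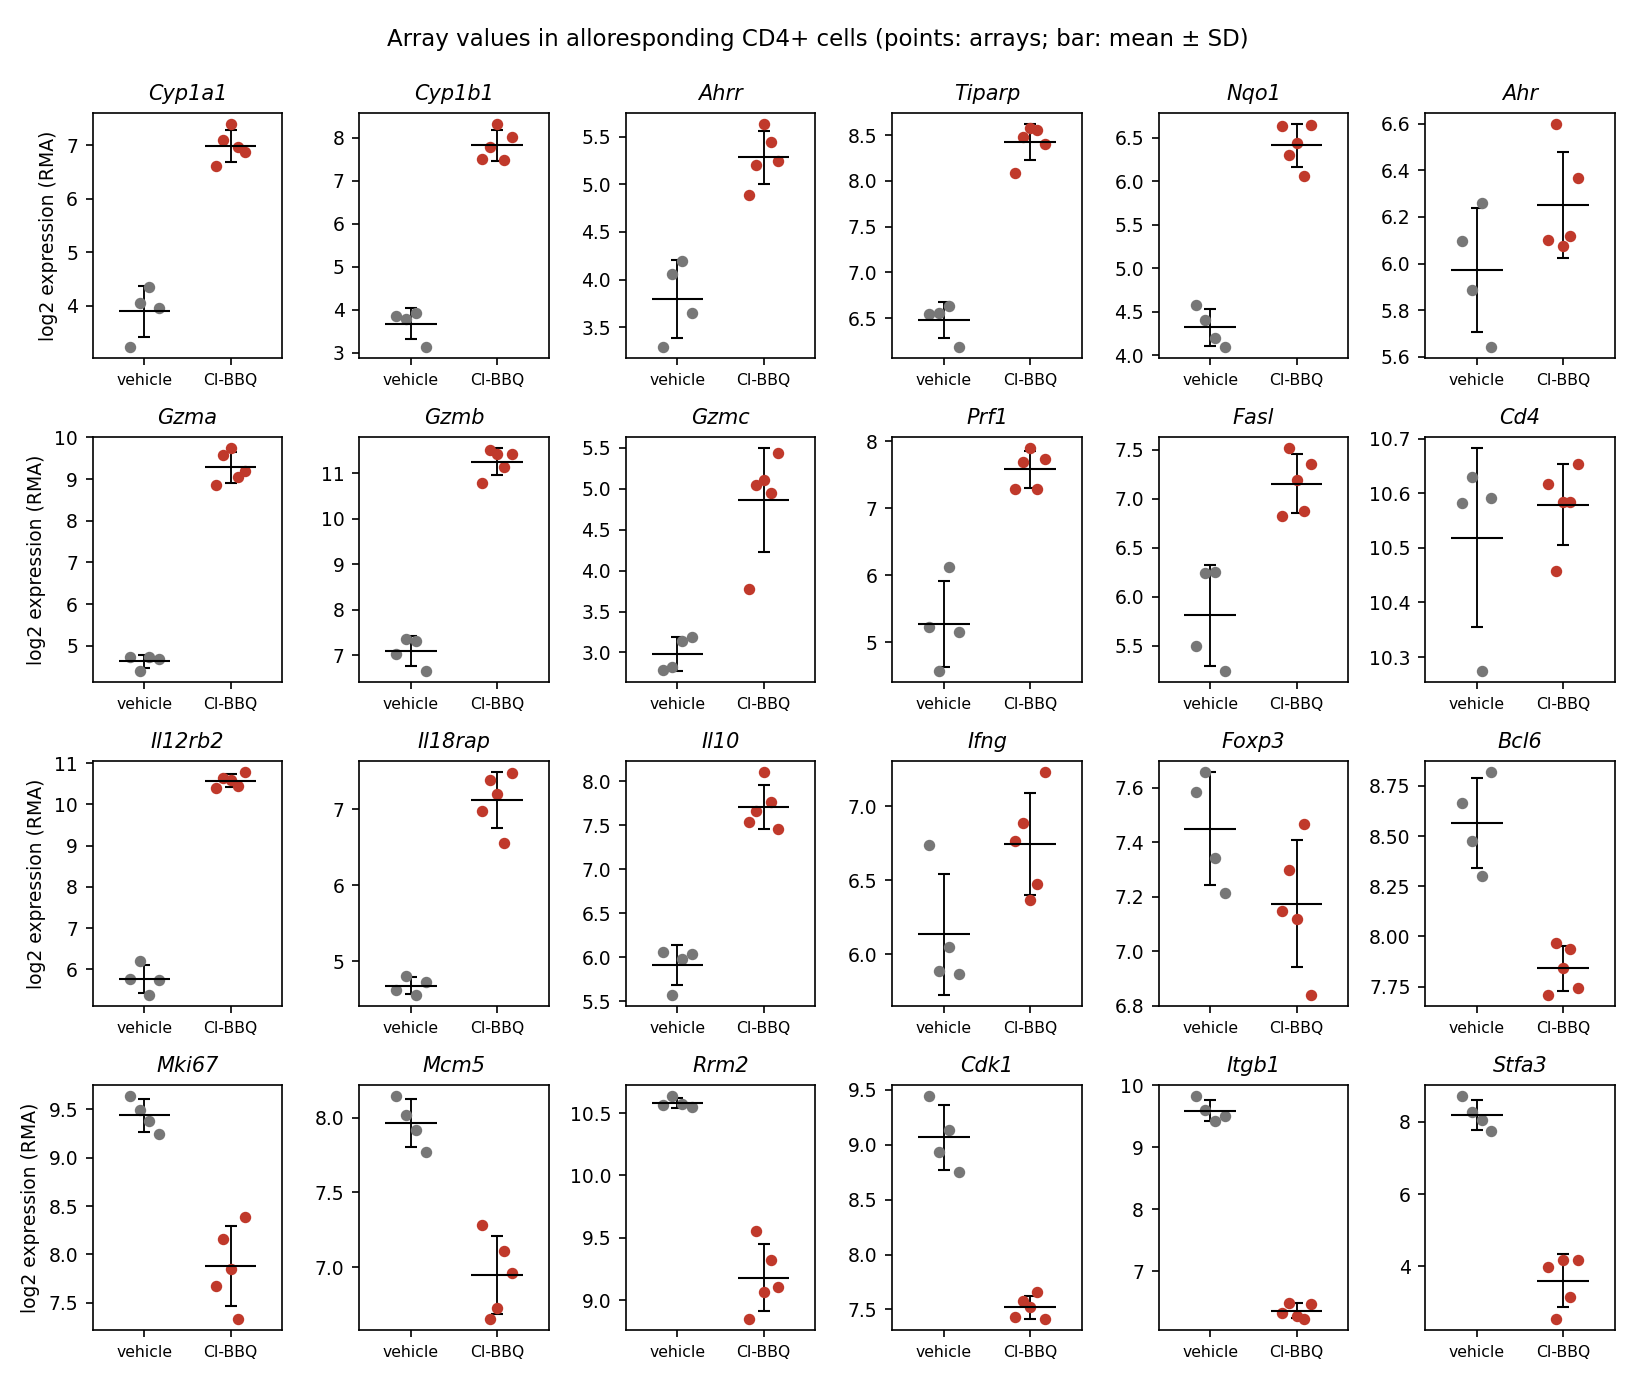
Log2 expression (vertical axes, RMA) of 24 genes on the 4 vehicle and 5 Cl-BBQ arrays, with points for arrays and black bars for the mean ± SD. The groups are separate for AhR battery, granule, receptor and cell cycle genes, while Cd4, Ahr, Ifng and Foxp3 overlap.

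Cytotoxic granule genes held several of the largest rises. Of 24 members on the array 21 were tested, of which 11 rose and 1 fell, and 9 of the rises held when any array was left out. The median of those tested was 0.47, against a median of -0.01 for all tested genes, and it ran from 0.33 to 0.56 over the 18 alternatives. Gzmd, Gzmf and Gzmg were too low in both groups to be tested, whereas Gzmc passed the floor through ligand arrays alone. The median of those tested therefore depends on the filter. Gzma, the granule protease granzyme A, measured 4.73, 4.39, 4.72 and 4.67 with vehicle and 8.85, 9.58, 9.75, 9.04 and 9.20 with Cl-BBQ. Gzmb, which encodes granzyme B, measured 7.04, 7.37, 7.33 and 6.66 with vehicle and 10.79, 11.51, 11.42, 11.14 and 11.44 with Cl-BBQ. The groups were separated by more than 3 log2 units in both, with differences of 4.66 ± 0.17 (limma, adjusted p = 5.35e-10) and 4.16 ± 0.16 (limma, adjusted p = 5.58e-10), which are fold changes of 25.2 and 17.9.

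Further parts of the killing machinery followed. Prf1, which encodes the pore former perforin, measured 5.23, 4.57, 6.13 and 5.15 with vehicle and 7.28, 7.69, 7.90, 7.29 and 7.74 with Cl-BBQ, a difference of 2.31 ± 0.25. Gzmc, another granzyme gene, rose from below the floor and varied among Cl-BBQ arrays, with 2.79, 2.82, 3.14 and 3.18 with vehicle and 3.77, 5.04, 5.11, 4.95 and 5.44 with Cl-BBQ. Fasl, the death ligand of cytotoxic T cells, measured 5.50, 6.24, 6.25 and 5.24 with vehicle and 6.82, 7.52, 7.19, 6.87 and 7.35 with Cl-BBQ. None of these groups overlapped, and Gzmc had the widest spread among the Cl-BBQ arrays with array 1 at 3.77. Nkg7, a granule membrane protein, rose by 2.21 ± 0.11 and Ctsw, a cathepsin of cytotoxic cells, by 1.52 ± 0.11. Sytl2, which docks granules at the membrane and is on no list, measured 5.06, 5.39, 5.41 and 5.37 with vehicle and 7.99, 8.58, 8.37, 7.83 and 8.47 with Cl-BBQ, a difference of 2.94 ± 0.14.

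Markers of cells that carry such granules by default moved in part with these genes. The natural killer list (10 markers on the array) averaged 4.11 to 4.30 with vehicle and 4.79 to 4.93 with Cl-BBQ. Without its members that stand on other lists, Gzma and Nkg7 among them, the remaining 7 averaged 3.38 to 3.51 and 3.33 to 3.59. Those 7 overlapped between the groups, and Klrc1, Klrc2, Klre1 and Klrk1 were below the floor on all 9 arrays. The CD8 T cell list averaged 5.44 to 5.75 with vehicle and 5.78 to 6.04 with Cl-BBQ. The 3 members that stand on no other list averaged 4.84 to 5.10 and 5.18 to 5.61, again without overlap, while without Runx3, the 1 called member, the ranges of 4.86 to 5.24 and 5.09 to 5.39 overlapped. Cd8a was low in both groups, with 4.25, 4.04, 4.15 and 4.26 with vehicle and 5.31, 4.28, 4.32, 4.60 and 5.36 with Cl-BBQ; the groups did not overlap but the gene was not called (limma, adjusted p = 0.15). The part of CD8 T cells in the granule result was not tested.

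Receptors for the cytokines that induce type 1 helper (Th1) cells rose with the granule genes. Of 19 tested Th1 genes 12 rose, none fell and the median was 0.86; 11 of the rises held when any array was left out. Il12rb2, which encodes the chain that carries the interleukin 12 signal, and the largest rise of all tested genes, measured 5.75, 6.20, 5.38 and 5.75 with vehicle and 10.41, 10.64, 10.60, 10.45 and 10.78 with Cl-BBQ. Il18rap and Il18r1 encode the 2 chains of the interleukin 18 receptor. Il18rap measured 4.62, 4.81, 4.56 and 4.73 with vehicle and 6.99, 7.39, 7.20, 6.55 and 7.48 with Cl-BBQ, and Il18r1 6.12, 6.08, 5.77 and 6.08 with vehicle and 7.26, 7.57, 7.78, 7.43 and 7.87 with Cl-BBQ. Neither gene overlapped between the groups, with differences of 2.44 ± 0.20 and 1.57 ± 0.13, and that of Il12rb2 was 4.81 ± 0.16 (limma, adjusted p = 4.44e-10). The Cl-BBQ arrays were close together for Il12rb2, with an SD of 0.15 among the 5.

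Transcription factors of the Th1 list were called as well. Tbx21, which encodes the master regulator T-bet, rose by 0.64 ± 0.15 from a vehicle mean of 6.62, and Runx3, its cofactor, by 0.86 ± 0.08. Stat4, the transducer of interleukin 12, had a difference of 0.37 ± 0.09, and its call ended with the replicate number as a block (limma, adjusted p = 0.068). Ifng, the defining Th1 cytokine, measured 6.74, 5.88, 6.04 and 5.87 with vehicle and 6.76, 6.89, 6.36, 6.48 and 7.23 with Cl-BBQ. It was not called (difference 0.61 ± 0.19, 95% interval from 0.19 to 1.03, limma, adjusted p = 0.059), and the result turned on the setting. It was called with a stricter filter, whose floor is higher by 1 log2 unit (0.044) and with limma-trend, a prior that follows expression (0.045). Without vehicle array 1, the highest of its group at 6.74, Ifng was called (adjusted p = 0.0068), and likewise without Cl-BBQ array 3 (0.036). Tnf was at 8.34 ± 0.42 (SD, n = 4) with vehicle and 8.27 ± 0.42 (SD, n = 5) with Cl-BBQ, a difference of -0.07 ± 0.21.

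Chemokine genes of effector cells were among those that rose. Of 8 tested ligands 3 were called, all higher: Ccl5 by 1.28 ± 0.21, Ccl4 by 1.15 ± 0.27 and Xcl1 by 0.77 ± 0.19. Ccl5 held under every alternative. The call of Ccl4 ended with the replicate block (limma, adjusted p = 0.052), and that of Xcl1 without vehicle array 3 (0.062) or 4 (0.059).

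Cytokine receptor genes as a list rose more often than they fell. Of 27 tested receptor genes 12 rose and 2 fell, with a median of 0.25 (0.43 with the stricter filter), and 11 of the rises held when any array was left out. These rises include Il12rb2, Il18r1, Il18rap and Ifngr1, which were already counted on the Th1 list. Il7r, the receptor chain for the survival cytokine interleukin 7, measured 5.92, 6.23, 5.48 and 5.47 with vehicle and 8.19, 8.44, 8.56, 7.90 and 8.42 with Cl-BBQ. Il2ra, which encodes CD25, the chain that tightens binding of interleukin 2, rose by 0.97 ± 0.17 and Il4ra, shared by the interleukin 4 and 13 receptors, by 1.19 ± 0.11. Il27ra, a receptor chain of interleukin 27, rose by 0.83 ± 0.10 and Ifngr1, which binds interferon gamma, by 1.11 ± 0.09. The rise of Il7r, 2.53 ± 0.17, was the largest of these outside the Th1 receptors, and no vehicle array reached the lowest Cl-BBQ array. Of the feedback genes of cytokine signalling, Cish rose by 1.58 ± 0.17 and Socs3 by 1.35 ± 0.18, the latter by 0.79 in a second probe set (limma over all probe sets, adjusted p = 0.00472). They made up 2 of the 3 genes called among 19 tested JAK, STAT and SOCS genes, the third being Stat4, beside 11.3% called of all genes. The median of that list was 0.03, and Socs1, Socs2, Socs4, Socs5, Socs6 and Socs7 were tested but not called.

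**Figure D3:**
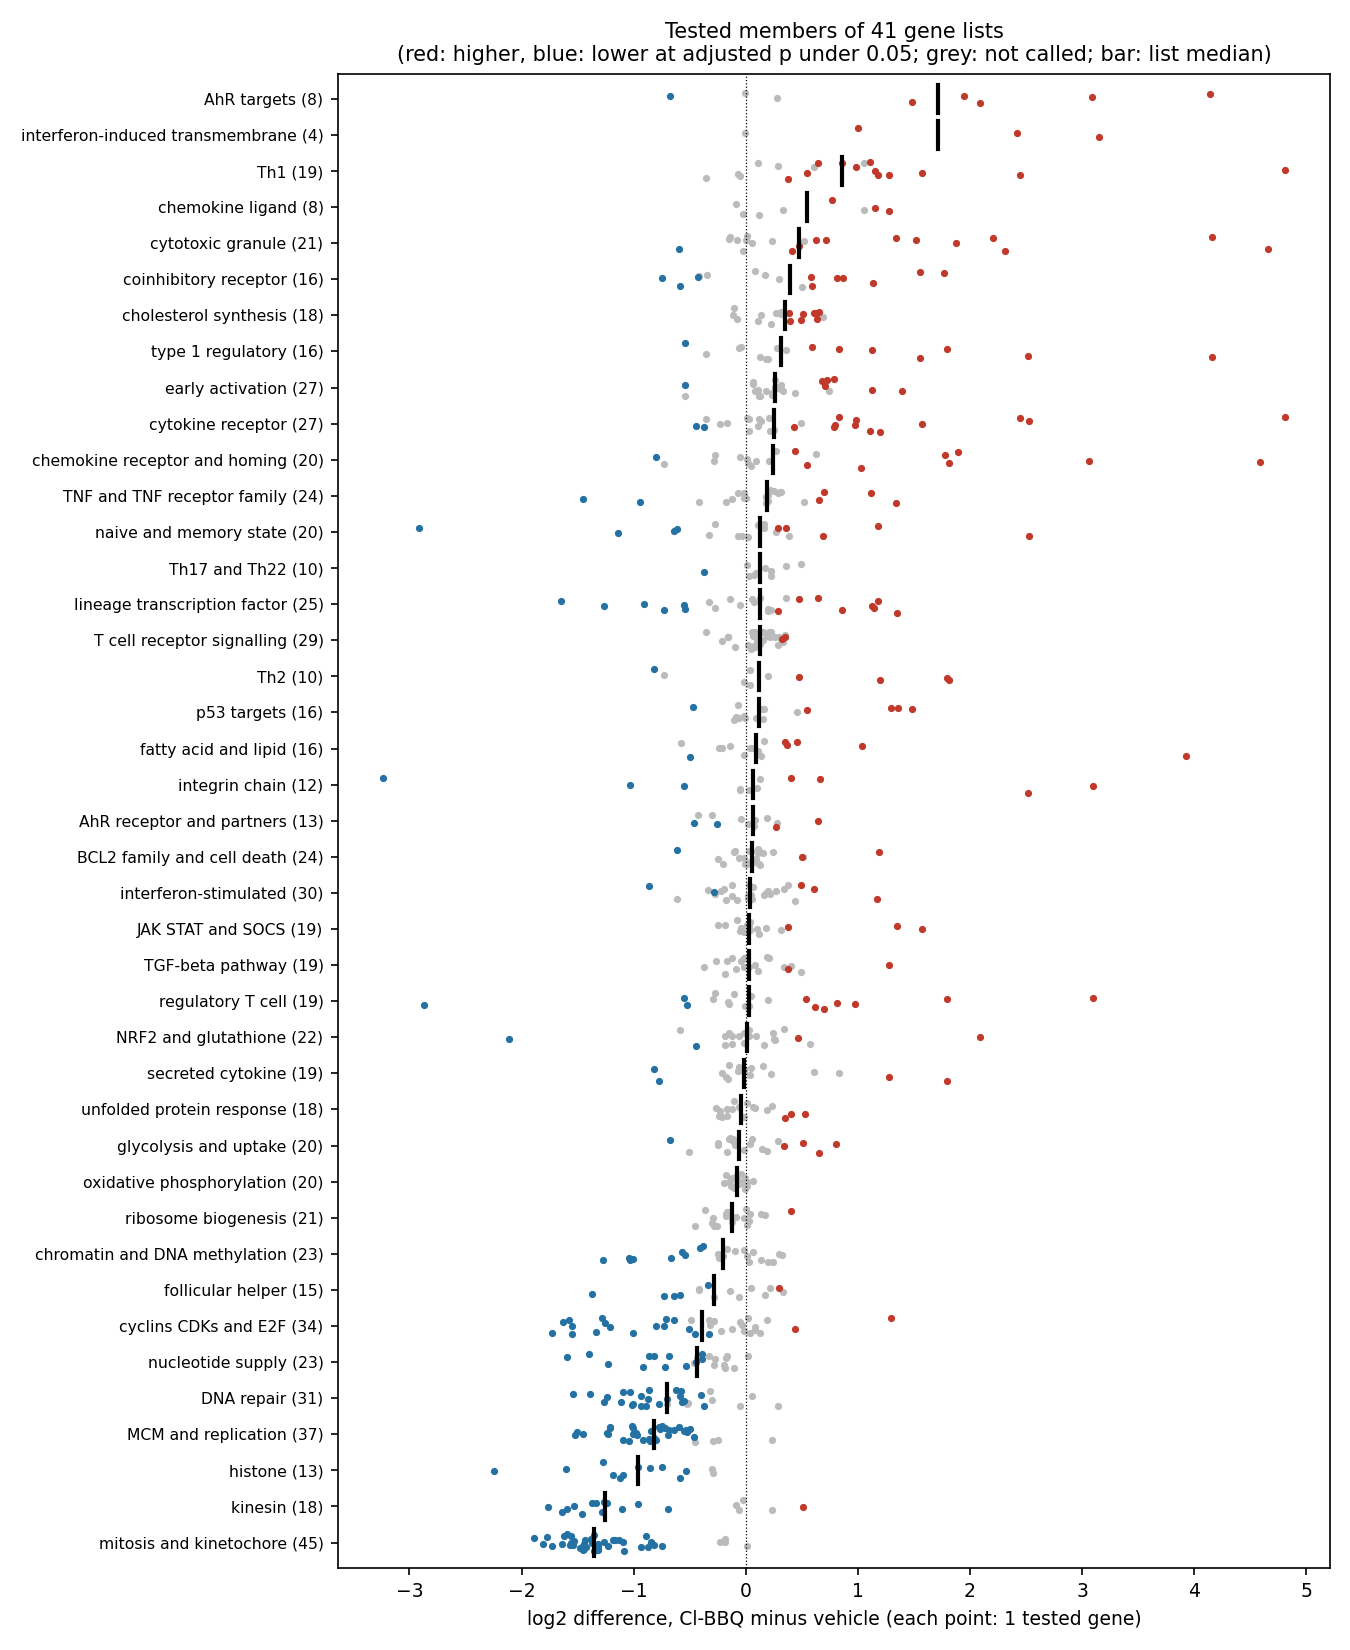
Log2 difference, Cl-BBQ minus vehicle (horizontal axis), of every tested member of 41 gene lists (rows, with the number tested), ordered by the list median (black bar); red and blue points are genes called higher and lower, grey points were not called. The medians run from 1.71 for the 8 tested AhR targets (0.28 over all 13 on the array) to -1.35 for mitosis and kinetochore genes, and most other lists lie within 0.5 of 0.

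Receptors that direct T cells to tissues changed in a mostly upward direction. Of 20 tested homing genes 8 rose and 1 fell. Gpr15, which guides T cells to the large intestine, measured 3.76, 4.77, 3.73 and 3.62 with vehicle and 8.09, 8.81, 8.76, 8.52 and 8.60 with Cl-BBQ. Cxcr6, a receptor of tissue-resident lymphocytes, measured 6.24, 5.97, 6.12 and 6.66 with vehicle and 9.20, 9.52, 9.34, 9.07 and 9.40 with Cl-BBQ, and Ccr9, which guides cells to the small intestine, 4.54, 4.16, 3.88 and 3.67 with vehicle and 5.22, 6.26, 6.18, 6.29 and 5.82 with Cl-BBQ. All 3 were separate between the groups, with differences of 4.59 ± 0.22, 3.06 ± 0.15 and 1.89 ± 0.22. Vehicle array 2 stood above the other vehicle arrays for Gpr15. Ccr4 rose by 1.81 ± 0.19, Ccr2 by 1.78 ± 0.13 and Selplg, which encodes the selectin ligand PSGL-1, by 1.03 ± 0.10. The lymph node receptor gene Ccr7 was not called (-0.28 ± 0.17, limma, adjusted p = 0.38) but was without vehicle array 3 (0.042).

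Integrin genes went in both directions. Of 12 tested chains 4 rose and 3 fell, and all 7 calls held when any array was left out. Itgae, the CD103 chain that binds epithelial E-cadherin, measured 4.74, 4.78, 4.83 and 4.60 with vehicle and 7.21, 8.02, 8.29, 7.71 and 7.91 with Cl-BBQ. Itga2, the collagen-binding CD49b chain, measured 4.01, 4.44, 4.25 and 4.11 with vehicle and 6.60, 7.09, 6.86, 6.12 and 6.92 with Cl-BBQ. Itgb1, the beta chain that pairs with Itga2 and with Itga4 at the cell surface, measured 9.83, 9.60, 9.43 and 9.51 with vehicle and 6.33, 6.49, 6.27, 6.23 and 6.47 with Cl-BBQ and was the largest fall of an integrin gene. The differences were 3.09 ± 0.17, 2.51 ± 0.17 and -3.23 ± 0.13, so that Itga2 and its partner chain moved in opposite directions. Itga4 fell by 1.03 ± 0.09 and Itgal, the alpha chain of LFA-1, by 0.55 ± 0.09.

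Regulatory T cell genes divided. Of 19 tested members 7 rose and 3 fell, and the median was 0.03. Foxp3, the defining transcription factor, measured 7.58, 7.66, 7.34 and 7.21 with vehicle and 7.15, 7.30, 7.12, 7.47 and 6.84 with Cl-BBQ and the groups overlapped (difference -0.28 ± 0.16, 95% interval from -0.62 to 0.07, limma, adjusted p = 0.35). Il10, an anti-inflammatory cytokine, measured 6.05, 5.57, 5.97 and 6.03 with vehicle and 7.53, 7.67, 8.10, 7.76 and 7.46 with Cl-BBQ, a difference of 1.80 ± 0.14. Ctla4, a coinhibitory receptor of activated and regulatory cells, rose by 0.81 ± 0.09 and Tnfrsf18, which encodes GITR, by 0.69 ± 0.11. Nrp1, a surface marker of thymus-derived regulatory cells, fell, with 7.98, 8.04, 7.34 and 7.75 with vehicle and 4.73, 4.99, 5.09, 4.44 and 5.28 with Cl-BBQ. The Foxp3 interval allows a fall of up to -0.62 or a rise of up to 0.07, while Nrp1 fell by 2.87 ± 0.20 with no overlap.

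Genes of type 1 regulatory (Tr1) cells, which make interleukin 10 without Foxp3, rose more often than they fell. Of 16 tested members 7 rose and 1 fell, all held when any array was left out, and the median was 0.32; the list shares Gzmb, Itga2 and Il10 with groups above. Havcr2, which encodes the coinhibitory receptor TIM-3, rose by 1.56 ± 0.27 and Lag3, another coinhibitory receptor used to mark Tr1 cells, by 0.59 ± 0.08. Irf4, a transcription factor of activated T cells, fell by 0.54 ± 0.13. Tgfb1, a cytokine of regulatory cells, differed by -0.05 ± 0.10 and was not called, whereas Tgfb3 rose by 1.28 ± 0.17.

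The 16 tested coinhibitory receptor genes included 7 that rose and 3 that fell, all of which held when any array was left out. Cd96, which binds the poliovirus receptor, rose by 1.77 ± 0.13, and Cd200r1, an inhibitory receptor for CD200, by 1.14 ± 0.19. Its ligand gene Cd200 fell by 0.74 ± 0.10 and Btla by 0.59 ± 0.10. Pdcd1, which encodes PD-1, measured 8.36, 8.37, 8.08 and 8.25 with vehicle and 8.08, 7.56, 7.87, 7.94 and 7.78 with Cl-BBQ. It lay lower on every Cl-BBQ array than on any vehicle array but was not called (limma, adjusted p = 0.082), and passed in the fit of these 2 groups alone (0.046) and with array weights (0.037). Tigit had a difference of 0.29 ± 0.09 (limma, adjusted p = 0.058) and was called in 6 of 18 alternatives, among them those without Cl-BBQ array 1 (0.028) and vehicle array 2 (0.046).

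Genes of follicular helper T cells, which support B cells, fell more often than they rose. Of 15 tested members 5 fell and 1 rose, the median was -0.28 (-0.18 without Cl-BBQ array 3), and 4 of the falls held when any array was left out. Bcl6, the transcription factor that defines these cells, measured 8.67, 8.47, 8.30 and 8.82 with vehicle and 7.71, 7.96, 7.84, 7.94 and 7.74 with Cl-BBQ. Pou2af1, a transcriptional coactivator, fell by 1.37 ± 0.16 and Tox by 0.64 ± 0.10. Bcl6 fell by 0.73 ± 0.11 with no overlap (limma, adjusted p = 3.25e-04).

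Of 10 tested Th2 genes 4 rose and 1 fell, a larger share than the 11.3% of all genes, and 3 of the rises, of Il4ra, Ccr4 and Il10, held under every alternative. The other calls were less stable. Gata3, the Th2 master regulator, had a difference of 0.47 ± 0.13, and its call ended without any of Cl-BBQ arrays 2 to 5 or vehicle arrays 2 to 4 (limma, adjusted p up to 0.11 without 1 array). A second probe set of Gata3 gave 0.42 and was not called (limma over all probe sets, adjusted p = 0.0722). Il4, the signature Th2 cytokine, was lower by 0.82 ± 0.20, a call that ended without vehicle array 2 (0.056). Of 10 tested Th17 and Th22 genes 1 was called, a share of its list close to that of all genes, and it was lost without most single arrays. Il22, a cytokine of those cells that AhR is known to drive, was below the floor. Il2, the T cell growth factor, measured 5.44, 5.52, 6.52 and 4.21 with vehicle and 6.85, 6.18, 6.23, 6.02 and 6.00 with Cl-BBQ and was not called (limma, adjusted p = 0.15), but was without vehicle array 3 (0.016).

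The 25 tested lineage transcription factors counted 8 that rose and 6 that fell. Id2, an inhibitor of E proteins, rose by 1.18 ± 0.13, Bhlhe40, a regulator of cytokine production, by 1.35 ± 0.16, and Ikzf3, which encodes Aiolos, by 1.15 ± 0.10. Zbtb32, a zinc finger repressor, fell by 1.65 ± 0.21. On the list of naive and memory state genes, Dapl1, expressed in resting T cells, was lower, at 9.92, 9.78, 10.12 and 10.00 with vehicle and 7.33, 7.24, 6.84, 6.99 and 6.81 with Cl-BBQ, while the chromatin organiser gene Satb1 rose by 0.69 ± 0.08. That list held 5 rises, Il7r and Id2 among them, and 4 falls among 20 tested genes.

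Antigen receptor signalling genes gave few calls. Of 29 tested members 2 were called, a smaller share than the 11.3% of all genes, and neither held when each array was left out. Early activation genes were called more often, 6 of 27 higher and 1 lower. Cd69, a surface marker of recent stimulation, rose by 1.40 ± 0.11, Nfkbiz, a nuclear NF-kappa-B regulator, by 1.13 ± 0.09 and Myc by 0.73 ± 0.14. In the TNF families 4 of 24 rose and 2 fell. Tnfrsf9, which encodes the costimulatory receptor 4-1BB, rose by 1.12 ± 0.14, and the ligand genes Tnfsf4 and Tnfsf8, encoding OX40L and CD30L, fell by 1.46 ± 0.15 and 0.94 ± 0.12.

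Some survival and stress genes changed. Bcl2l11, which encodes the death-inducing BIM, rose by 1.19 ± 0.15 and Bcl2, its anti-apoptotic partner, fell by 0.61 ± 0.14; they were 2 of the 3 called genes among 24 of that family, a share near the 11.3% of all genes. A second probe set of Bcl2 gave -0.43 and was not called (limma over all probe sets, adjusted p = 0.147). Cdkn1a, which encodes the CDK inhibitor p21, measured 5.42, 5.66, 5.88 and 6.37 with vehicle and 6.91, 7.19, 7.33, 7.01 and 7.20 with Cl-BBQ. Gadd45b rose by 1.48 ± 0.14 and Gadd45g by 1.36 ± 0.20, both stress genes that restrain the cell cycle. These stand on a list of p53 targets and related stress genes. Of its 16 tested members 4 rose and 1 fell, a larger share than that of all genes. The 11 others, Mdm2, Ccng1, Zmat3 and Phlda3 among them, were not called, and Gadd45a had no probe set of a single symbol. A p53 response was not tested.

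Cell division genes fell in every class examined. Mki67, the proliferation marker, measured 9.64, 9.49, 9.38 and 9.24 with vehicle and 7.67, 8.16, 7.85, 7.33 and 8.38 with Cl-BBQ and fell by 1.56 ± 0.17 (limma, adjusted p = 2.25e-05). The dye records past divisions and both groups were sorted for at least 2, but the number of divisions per cell was not analysed here. The falls were present on all Cl-BBQ arrays, as the list means on each array show.

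Replication genes fell as a block. Of 37 tested members 33 fell and none rose, with a median of -0.82, and 30 of the falls held when any array was left out. Lig1, the ligase that joins Okazaki fragments, measured 8.70, 8.45, 8.73 and 8.15 with vehicle and 7.27, 6.83, 6.76, 6.97 and 7.09 with Cl-BBQ. Pole, the catalytic subunit of the leading-strand polymerase, fell by 1.45 ± 0.12, and Pola1, the polymerase that extends primers, by 1.09 ± 0.11. Mcm7, a subunit of the replicative helicase, fell by 1.00 ± 0.09 and Cdc6, which loads it at origins, by 1.21 ± 0.13. Supply of nucleotides followed for part of its genes, with 12 of 23 lower, none higher and a median of -0.43. Those that fell most make deoxynucleotides: Rrm1 and Rrm2, the subunits of ribonucleotide reductase, fell by 1.60 ± 0.12 and 1.40 ± 0.12, Tyms, which makes thymidylate, by 1.23 ± 0.14, and Tk1 by 0.92 ± 0.16. Rrm2 measured 10.56, 10.64, 10.57 and 10.55 with vehicle and 8.85, 9.56, 9.07, 9.32 and 9.10 with Cl-BBQ, with vehicle arrays close together and no overlap.

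Mitosis had the lowest median of all lists. Of 45 tested genes of mitosis and the kinetochore 41 fell, none rose, the median was -1.35, and all 41 falls held when any array was left out. Knl1, a scaffold of the kinetochore, fell by 1.89 ± 0.22 and Nuf2, a subunit of its microtubule-binding complex, by 1.81 ± 0.22. Top2a, which untangles chromosomes, fell by 1.64 ± 0.12, Bub1b, a checkpoint kinase gene, by 1.62 ± 0.12 and Plk1 by 1.45 ± 0.11. Of 18 tested kinesins 13 fell and 1 rose. Kif15, a spindle motor, measured 8.02, 8.05, 7.95 and 7.82 with vehicle and 6.30, 6.05, 6.35, 6.00 and 6.30 with Cl-BBQ, and Kif11, which pushes spindle poles apart, fell by 1.53 ± 0.10.

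Regulators of the cycle fell in part. Of 34 tested cyclin, CDK, inhibitor and E2F genes 17 fell and 2 rose. Cdk1, the kinase that drives mitosis, measured 9.44, 8.93, 9.13 and 8.75 with vehicle and 7.43, 7.58, 7.52, 7.66 and 7.41 with Cl-BBQ, and its cyclins Ccnb2 and Ccna2 fell by 1.57 ± 0.16 and 1.26 ± 0.09. E2f8, a late repressor of the E2F family, fell by 1.73 ± 0.15. Cdk1 fell by 1.55 ± 0.12 with no overlap, and Cdkn1a was 1 of the 2 genes that went up.

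Genes of new chromatin and its repair fell with replication. Of 13 tested histone and histone chaperone genes 11 fell, none rose and the median was -0.96. H1f1, a linker histone, measured 7.34, 6.95, 6.51 and 6.48 with vehicle and 5.03, 4.06, 5.26, 3.77 and 4.75 with Cl-BBQ, and Chaf1a, the large subunit of the chaperone that deposits histones on new DNA, fell by 1.60 ± 0.18. Of 31 tested repair genes 23 fell, none rose and 18 falls held when any array was left out. Hells, a chromatin remodeller, fell by 1.54 ± 0.16 and Exo1, an exonuclease of mismatch and break repair, by 1.11 ± 0.13. Of 23 tested chromatin and DNA methylation genes 9 fell and none rose. Uhrf1, which recruits the maintenance methyltransferase, fell by 1.03 ± 0.13, the methyltransferase gene Dnmt1 by 0.57 ± 0.09. Lmnb1, a nuclear lamin gene, fell by 1.27 ± 0.10.

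**Figure D4:**
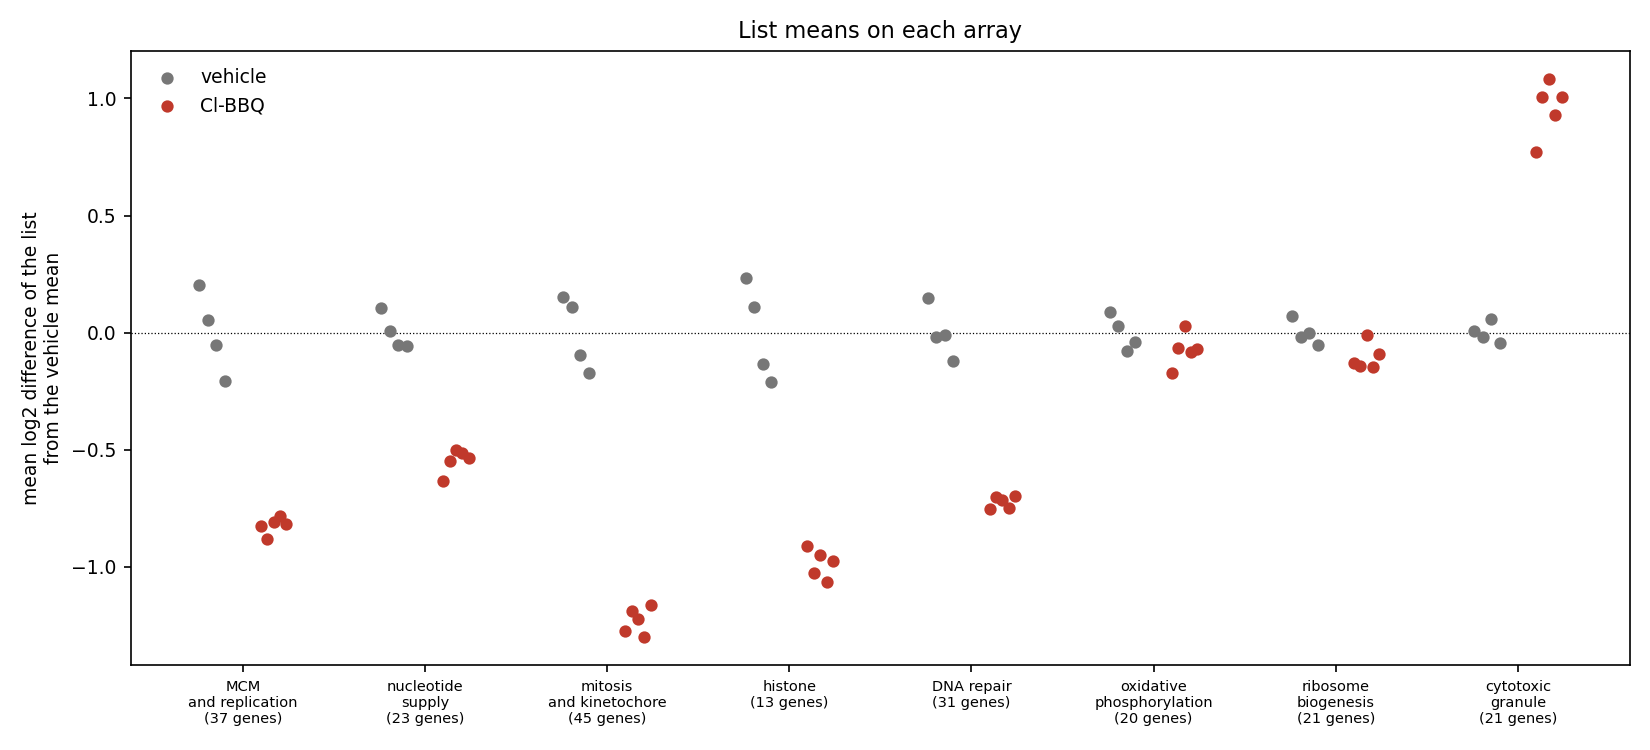
Mean over the tested members of 8 gene lists on each array, as the log2 difference from the vehicle mean (vertical axis), for the 4 vehicle arrays in grey and the 5 Cl-BBQ arrays in red. The mitosis list lies between -1.30 and -1.16 on the Cl-BBQ arrays and between -0.17 and 0.15 on the vehicle arrays, while the oxidative phosphorylation list overlaps.

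Genes of growth metabolism gave few falls. Of 20 tested oxidative phosphorylation genes none was called, with a median of -0.07. Of 21 ribosome biogenesis genes 1 was called, higher, and the median was -0.13. Cholesterol synthesis genes leaned up, with 8 of 18 higher, none lower and 6 of the rises held when any array was left out. Hmgcs1, an early enzyme of the pathway, rose by 0.65 ± 0.11 and Sqle, a later one, by 0.50 ± 0.09. Glucose uptake genes rose in small steps, Slc2a3 by 0.80 ± 0.15 and Slc2a1 by 0.65 ± 0.10, and 4 of 20 tested glycolysis and uptake genes rose while 1 fell. A second probe set of Slc2a1 gave 0.33 and was not called (limma over all probe sets, adjusted p = 0.336). Pltp, a phospholipid transfer protein gene, measured 4.16, 4.03, 4.62 and 4.53 with vehicle and 8.22, 8.16, 8.50, 8.27 and 8.18 with Cl-BBQ and had the largest rise of its list, in which Elovl6, a fatty acid elongase, rose by 1.04 ± 0.15.

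Detoxification genes were called in both directions. Of 22 tested genes of the NRF2 and glutathione pathway 2 rose, Nqo1 and Osgin1, and 2 fell, beside 11.3% called of all genes. Gstp3, a glutathione transferase gene, measured 11.41, 11.22, 11.18 and 11.21 with vehicle and 8.85, 8.88, 9.33, 9.39 and 9.27 with Cl-BBQ, a fall of 2.11 ± 0.13 from a high level. It is a near copy of other Gstp genes, whose probes may share signal. Of 30 tested interferon-stimulated genes 3 were called higher and 2 lower, with a median of 0.04. Of these, Oas2, which senses double-stranded RNA, rose by 1.17 ± 0.24. In the interferon-induced transmembrane family 6 genes were on the array, 4 were tested and 3 of these rose. Ifitm6 and Ifitm10 were too low in both groups to be tested, whereas Ifitm1 passed the floor through ligand arrays alone. The median over the 4 tested was therefore high, at 1.71, and over all 6 it was 0.59. Ifitm3, which blocks viral entry, measured 6.46, 6.85, 6.76 and 6.76 with vehicle and 9.35, 10.12, 10.25, 9.63 and 9.96 with Cl-BBQ, a difference of 3.15 ± 0.18, and Ifitm2 and Ifitm1 rose by 2.42 ± 0.28 and 1.00 ± 0.15, the latter from below the floor on every vehicle array and at least 1.59-fold higher against it. Their sequences are alike, so signal from 1 of them could reach the probes of another.

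Among the 25 largest rises, several belong to no list. Asb2, a subunit of a ubiquitin ligase, measured 5.09, 5.03, 4.59 and 4.66 with vehicle and 7.97, 8.45, 8.28, 8.54 and 8.25 with Cl-BBQ, and Lilrb4a, an inhibitory receptor, 3.67, 4.71, 3.83 and 2.76 with vehicle and 5.97, 7.19, 6.87, 7.22 and 6.66 with Cl-BBQ. Myo1f, an unconventional myosin of leukocytes, rose by 2.83 ± 0.10, Cd7, a T cell surface protein, by 2.65 ± 0.17 and Rasgrp4, an activator of Ras, by 2.56 ± 0.18. Lower on the same ranking stood B4galnt4, a glycosyltransferase gene, at 2.44 ± 0.19, and Cldnd1, Plac8 and Lztfl1 at 2.39 ± 0.12, 2.31 ± 0.13 and 2.31 ± 0.14. No Cl-BBQ array overlapped a vehicle array for any of these, a condition of this ranking.

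The largest falls mixed division genes with others. Stfa3, a stefin that inhibits cathepsins, measured 8.72, 8.27, 8.06 and 7.74 with vehicle and 3.97, 2.53, 4.18, 3.15 and 4.16 with Cl-BBQ, and fell by 4.60 ± 0.32, the largest fitted fall of all tested genes. All its Cl-BBQ arrays lay below the floor, and against the floor it was at least 14.8-fold lower. It has near-identical neighbours in the mouse genome, which its probes may also read. Cybb, the catalytic subunit of the phagocyte oxidase, measured 6.81, 7.11, 6.46 and 5.96 with vehicle and 4.38, 3.65, 3.71, 4.18 and 4.61 with Cl-BBQ, and Cd22, a sialic acid receptor best known on B cells, 5.91, 6.54, 5.89 and 6.33 with vehicle and 4.29, 3.85, 4.14, 4.07 and 4.14 with Cl-BBQ. With Cl-BBQ, Cd22 was below the floor on every array and Cybb on 3 of 5, and the values of their cell type lists stand above. Gpm6b and Ms4a4c, both encoding membrane proteins, fell by 2.79 ± 0.27 and 2.25 ± 0.27, and Sema4a, a semaphorin, by 1.88 ± 0.19. Mnd1, a partner in strand exchange, fell by 2.05 ± 0.20 to below the floor (at least 2.23-fold lower), and Pbk, a mitotic kinase, by 1.94 ± 0.24. Of the 25 largest falls, 7 stand on a list of division, histone or repair genes. The lists do not hold every such gene, and Pbk, Aspm and Ncapg2, also genes of division, are among the rest. The count is therefore a lower bound.

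The direct contrast of the ligands compared regimens, since Cl-BBQ was given at 10 mg/kg on 3 days and TCDD at 15 µg/kg on 1. In the same fit 3 of 12710 genes (0.0236%) were called by limma, all higher with Cl-BBQ, while 815 had an unadjusted p under 0.05. Gzma was at 8.08 ± 0.21 (SD, n = 4) with TCDD and 9.28 ± 0.37 (SD, n = 5) with Cl-BBQ, a difference of 1.21 ± 0.17. Il7r was at 7.14 ± 0.19 with TCDD and differed by 1.16 ± 0.17, and Nqo1 at 5.33 ± 0.32 and by 1.08 ± 0.16. In each of these genes all 5 Cl-BBQ arrays lay above all 4 TCDD arrays, and each adjusted p was 0.0392. The calls are fragile: they ended with no filter, in the fit of these 2 groups alone, with the replicate block, without any 1 of the TCDD arrays and without Cl-BBQ array 2, 3 or 5, where 0 genes were called. Without Cl-BBQ array 2, for example, the adjusted p was 0.15 for Gzma, 0.16 for Il7r and 0.15 for Nqo1, and for Gzma the values without the other arrays named ran from 0.064 to 0.14. Without Cl-BBQ array 1 only the calls of Il7r (0.058) and Nqo1 (0.067) ended. Cyp1a1, higher with Cl-BBQ by 1.63 ± 0.26, and Gstp3, lower by 0.79 ± 0.13, lay just past the threshold at 0.0506 each. Each was called in 6 of 18 alternatives, and for Gstp3 these included the fit without Cl-BBQ array 4 (0.047). Few genes passing does not show that the regimens act alike: the 95% interval of the Il12rb2 difference between them ran from -0.01 to 0.69.

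**Figure D5:**
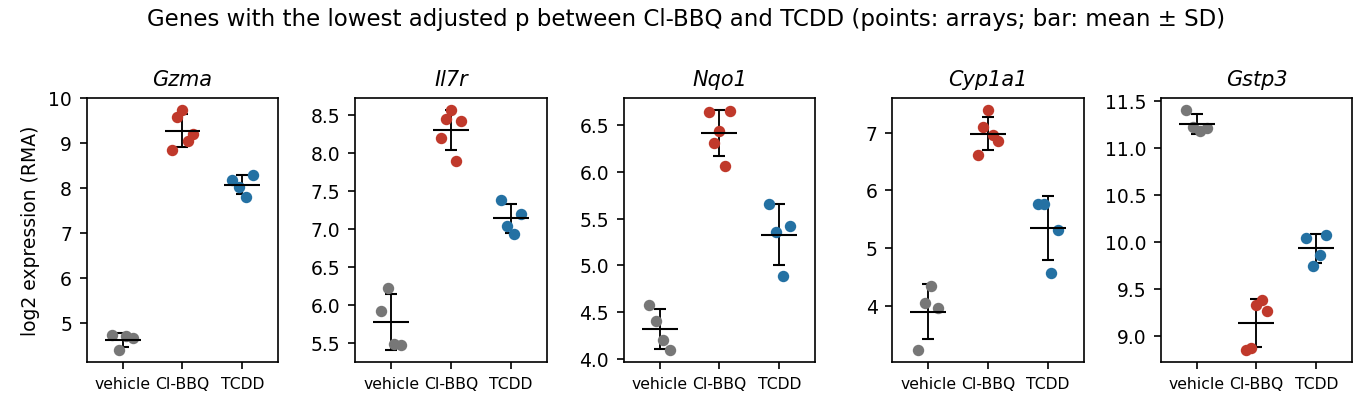
Log2 expression (vertical axes, RMA) of the 5 genes with the lowest adjusted p between the ligands on the vehicle, Cl-BBQ and TCDD arrays, with points for arrays and black bars for the mean ± SD. For Gzma, Il7r, Nqo1 and Cyp1a1 the Cl-BBQ arrays lie highest, and for Gstp3 lowest.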

How the data were processed

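Gene expression was measured on 13 single-colour arrays, 4 vehicle, 5 Cl-BBQ and 4 TCDD, from biotin-labelled cRNA primed with oligo-dT, per the labels' protocols. The deposited values are log2 expression per probe set, computed by the authors with RMA, per the submitters' processing notes; its version and the array's scan batches were not given in the sources used here. Of 41345 probe sets 23521 had 1 gene symbol, 1814 had several and 16010 were unnamed; neither of the latter were used for genes. Each of 22180 genes was represented by its brightest probe set, by mean over the 13 arrays.

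Genes above 4.31, the median of all values, on at least 4 arrays were tested with limma 3.58.1 in R 4.3.3 (lmFit, eBayes, 3 group means on 13 arrays, 10 residual degrees of freedom, two-sided, Benjamini-Hochberg over 12710 genes). The number of arrays limits the precision. The procedure was tested on simulated data. The replicate numbers of the labels were not used to pair arrays. Gene lists, markers and the members named were chosen with earlier results of these data known. Genes were named from the 25 largest rises and 25 largest falls without overlap, up to 6 called members per list by adjusted p and a fixed set of immune genes. Alternatives changed 1 choice each: the filter, the normalization, the probe set, the prior, array weights, the arrays fitted, a replicate block and each array left out.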

Additional observations from a re-analysis of the deposited data

Results flagged for a closer look

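In 15 of 336 sets of arrays examined (168 genes, vehicle and Cl-BBQ groups), 1 array stood apart from the rest of its group by Dixon's criterion, which chance meets in about 1 of 20 sets. Vehicle array 2 was the highest of its group for Gpr15 (4.77, others 3.62 to 3.76) and the lowest for Il10 (5.57, others 5.97 to 6.05) and Tnfrsf18 (8.73, others 8.97 to 8.99). Vehicle array 3 was the lowest for Cd4 (10.27, others 10.58 to 10.63), Il18r1 (5.77, others 6.08 to 6.12), Selplg (10.25, others 10.66 to 10.73) and Zbtb32 (7.09, others 7.76 to 7.82). Vehicle array 1 was the lowest for Sytl2 (5.06, others 5.37 to 5.41).

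On the treated side, Cl-BBQ array 1 was the lowest for Bcl2l11 (7.29, others 7.92 to 8.04) and Klf6 (7.30, others 7.88 to 8.04) and the highest for Il2 (6.85, others 6.00 to 6.23), Slc2a1 (8.35, others 7.94 to 8.05) and Slc7a5 (7.33, others 6.93 to 7.02). Cl-BBQ array 4 was the highest for Osgin1 (6.11, others 5.80 to 5.89) and Selplg (11.71, others 11.58 to 11.61). Of these genes, Slc7a5 alone lost its call when 1 array was left out, and Il2 gained one.

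Probe sets with no gene name here were outside the comparisons of genes. In a limma fit over all 22194 probe sets above the floor, 6.54% of all probe sets were called against vehicle. Of 7684 probe sets with no gene name 191 were called (2.49%), 103 higher and 88 lower. Of 1044 probe sets with several gene symbols 70 were called, 14 higher and 56 lower, a share of 6.7% that is near that of all probe sets.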

How the results depend on the processing

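The number of genes called against vehicle ran from 1114 with the replicate block to 1604 with a prior that follows expression (limma-trend), and from 1185 to 1433 when 1 array was left out, all within 1.5 times the 1441 reported. Whether the replicate numbers pair the arrays is not known. Same-numbered vehicle and Cl-BBQ arrays had correlations of deviations from -0.059 to 0.031, which are near 0 but cannot settle it. With the numbers as a block 1114 genes were called against vehicle and 0 in the direct contrast. Over the 216 genes that the naming rule gives, calls against vehicle ended in 164 of 3883 gene and alternative pairs, in 32 genes, and were gained in 14; no difference called in either setting changed sign. Over the 168 genes named in the text, calls ended in 33 of 3019 pairs, in 8 genes. The median of the AhR targets ran from 0.28 with no filter to 2.09 with the stricter filter. The direct contrast depended on the setting: against 3 genes, all higher with Cl-BBQ, 7 were called with array weights (5 higher, 2 lower), 6 with the stricter filter (5 higher, 1 lower), 5 each with limma-trend, the mean of probe sets and quantile normalization (1 lower in each), and 0 with no filter, in the fit of the 2 groups alone and with the replicate block. Leaving out 1 array gave 0 to 4 calls, 0 to 3 higher and 0 to 1 lower. The cause was not tested. Quantile normalization and median centring moved the median of all genes by 0.0021 and -0.0033. Genes near the floor, such as Cyp1a1, Ahrr and Gzmc with vehicle, have no measured level there, so their differences depend on the background of the arrays.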

Other observations

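Several groups of called genes stand on none of the lists above; they were picked with their values in view and are given as values only. Enzymes that build or modify cell surface sugars were among those higher with Cl-BBQ. Gcnt1, which makes the branched O-glycans that carry selectin ligands, measured 6.46, 6.35, 5.92 and 5.82 with vehicle and 7.16, 7.46, 7.44, 7.16 and 7.42 with Cl-BBQ. St3gal6, a sialyltransferase gene, rose by 1.65 ± 0.13, Chst11, a chondroitin sulfotransferase gene, by 1.16 ± 0.18 and Ust, another sulfotransferase gene, by 1.06 ± 0.20. None of these groups overlapped. Of surface and secreted proteins, Slamf7 rose by 1.61 ± 0.17, Lgals3, which encodes the sugar-binding galectin-3, by 1.73 ± 0.14 and Cd55, a complement regulator, by 1.38 ± 0.23.

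Signalling genes were found in both directions. Pim1, a kinase induced by cytokines, rose by 1.26 ± 0.18, and Furin, a protease that matures TGF-beta and other precursors, by 1.13 ± 0.13. Gpr55 and Gpr65, receptors for lipids and for protons, rose by 2.11 ± 0.14 and 1.33 ± 0.17. Vdr, the nuclear receptor for vitamin D, measured 7.55, 7.15, 6.61 and 7.22 with vehicle and 5.95, 6.13, 5.85, 5.78 and 6.13 with Cl-BBQ and fell by 1.16 ± 0.16 with no overlap. S100a4, a calcium-binding protein, fell by 0.92 ± 0.16. Of genes tied to division that stand on no list, Melk, a mitotic kinase gene, fell by 1.68 ± 0.15 and Stmn1, which destabilises microtubules, by 1.04 ± 0.18.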
